A study of Mus musculus with 24 samples.

Results

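Anti-PD-1 was set against an isotype control antibody in 12 subcutaneous CT26 tumours whose cells had been grown in DMSO, the solvent control of the study. The 12 tumours, out of 24 in the series, were taken by the titles of their samples, 6 given anti-PD-1 and 6 given isotype, and 600 of 750 genes were tested, those averaging log2 of 20 or more over the 24 tumours. CT26 cells are an established colon carcinoma line of BALB/c mouse origin. The other 12 tumours came from cells grown with NP1867, an inhibitor of the mismatch repair protein PMS2, and enter here only through the shared estimate of spread and 1 comparison at the end.

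The anti-PD-1 group consisted of BALB/c mice, with an intact immune system, that carried tumours of CT26 cells cultured in DMSO for 40 weeks and received 4 intraperitoneal doses of the rat IgG2a antibody RMP1-14. The isotype group consisted of mice of the same strain, bearing tumours of the same DMSO-cultured cells, that received 4 doses of the rat IgG2a antibody 2A3. Both antibodies were dosed at 5 mg/kg. Mice were randomised on day 7 after implantation, and tumours were collected on day 19, which was 24 h after the last dose. The tumours sampled were picked because their volume lay close to the mean of their group, and the whole material came from 1 cell line, so the spread given below is that between such selected tumours. The labels give no age, sex or batch. Each tumour is called by the number in its title.

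PD-1 is an inhibitory receptor of activated T cells. Its ligands PD-L1 and PD-L2 are displayed by tumour cells, macrophages and dendritic cells, and blocking the contact releases T cell receptor signalling. Interferon-gamma made by such T cells acts on neighbouring cells and raises antigen presentation genes, T cell attracting chemokines and PD-L1 itself.

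RNA from fixed and embedded tumour was counted on the NanoString nCounter Mouse PanCancer Immune panel, and the deposited values were on a log2 scale after scaling each tumour by 1 factor. Counts recovered from these values summed to between 106186 and 568386 in anti-PD-1 tumours and between 62699 and 489839 in isotype tumours. Below 200000 counts lay 4 tumours, anti-PD-1 tumours 11 and 37 and isotype tumours 6 and 23. The last had 183 tested genes under 20 counts, and a factor of 5.457. The median deposited log2 value of the 600 genes averaged 7.41 ± 0.16 in anti-PD-1 tumours and 7.16 ± 0.24 in isotype tumours (SD, n = 6 each), a difference of 0.248 (two-sided exact permutation test over all assignments of the 12 tumours, p = 0.0671). The difference was close in size to the spread between tumours and missed the threshold of 0.05. Among the 8 deeper tumours the medians did not overlap, with 7.44 to 7.56 under anti-PD-1 and 6.92 to 7.18 under isotype. In the 4 low-count tumours the order was the other way, 7.16 and 7.26 under anti-PD-1 and 7.36 and 7.52 under isotype. The values of every gene list are read beside this difference, and the part of depth in the results was not tested.

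**Figure D1:**
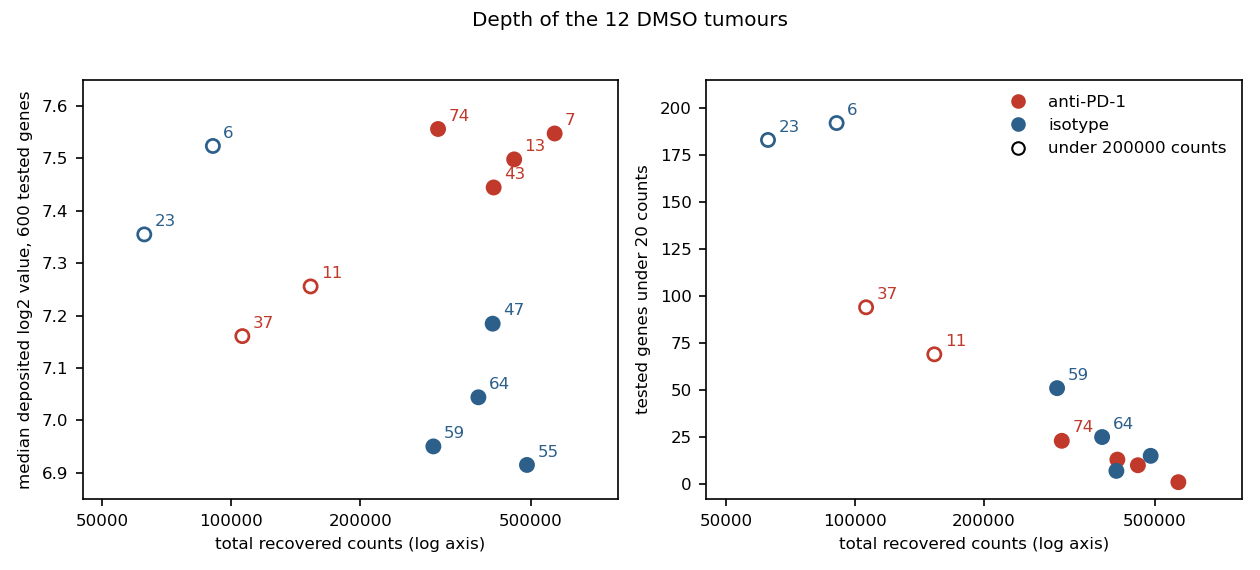
Depth of the 12 tumours. Left, the median deposited log2 value over the 600 tested genes against the total of recovered counts (log axis). Right, the number of tested genes under 20 counts. Points are tumours with their numbers (on the right only those with at least 20 such genes), and open points have fewer than 200000 counts. The deeper anti-PD-1 tumours lie between 7.44 and 7.56 and the deeper isotype tumours between 6.92 and 7.18.

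No gene passed. limma called 0 of 600 genes at an adjusted p under 0.05 (0.0%), with a lowest adjusted p = 0.301. With tumours weighted by how well they fitted the model (array weights), the same 12 tumours gave 273 calls (45.5%), 250 higher (41.7%) and 23 lower (3.83%), with a weight of 0.1257 for isotype tumour 23. Without weights or adjustment 85 genes (14.2%) were under 0.05, 68 of them higher (11.3%) and 17 lower (2.83%) under anti-PD-1. The median log2 fold change (anti-PD-1 minus isotype throughout) was 0.23, and 438 genes (73.0%) had a value above 0. All 6 anti-PD-1 tumours were above the isotype mean for 128 genes (21.3%) and below it for 40 (6.67%). The groups did not overlap for 3 genes (0.5%), Slc11a1 among the higher and Creb1 and Tank among the lower ones. Fold changes below are therefore given as estimates with their 95% confidence intervals, not as changes shown for single genes.

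Slc11a1, a metal ion transporter in the phagosomes of macrophages and neutrophils, had the lowest p of the panel. In anti-PD-1 tumours 7, 11, 13, 37, 43 and 74 its log2 values were 7.95, 7.38, 7.32, 7.33, 8.01 and 7.73, against 6.28, 6.91, 7.32, 6.16, 6.67 and 7.07 in isotype tumours 6, 23, 47, 55, 59 and 64. The groups parted by less than the printed decimals, since the lowest anti-PD-1 tumour and the highest isotype tumour both round to 7.32. The log2 fold change was 0.89 (95% interval 0.38 to 1.39, 1.85-fold, adjusted p = 0.301 by limma). Il2rg, the common gamma chain shared by the receptors for interleukins 2, 7 and 15, came next at 0.93 (0.36 to 1.49), with log2 values of 6.75 to 7.96 under anti-PD-1 and 6.18 to 7.21 under isotype. In both genes all 6 treated tumours were above the isotype mean. The plot of the 20 genes with the lowest p also holds Vwf, the von Willebrand factor of endothelium and platelets (1.30, 0.36 to 2.24), Nfatc4, a calcium-regulated transcription factor (1.31, 0.38 to 2.23), Il1rn, the interleukin-1 receptor antagonist (0.83, 0.22 to 1.45), and Slamf7, a receptor of natural killer and plasma cells (0.83, 0.22 to 1.43). All 4 had intervals above 0, which follows from their choice by low p. The endothelium and angiogenesis list as a whole had 6 of 16 tested members above 0 (median -0.02, and -0.27 after centring), with Pecam1, an endothelial adhesion molecule, at 0.10 (-0.62 to 0.83), or -0.15 after centring.

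**Figure D2:**
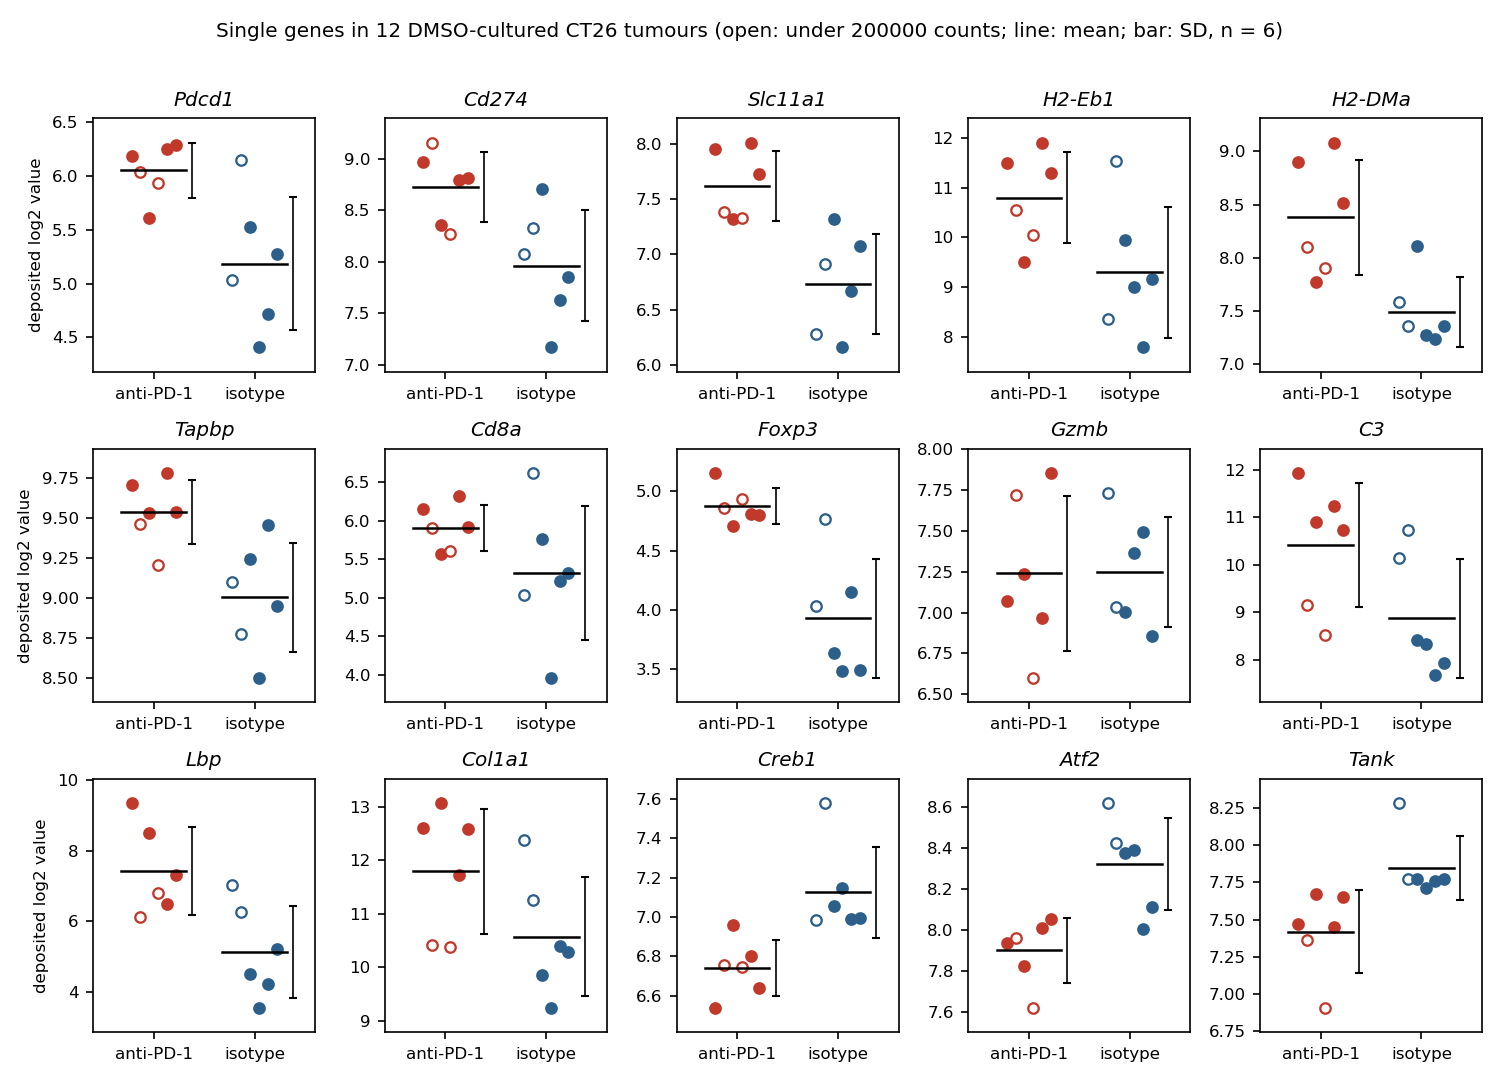
Deposited log2 values of 15 genes in 6 anti-PD-1 (left, red) and 6 isotype tumours (right, blue). Each point is 1 tumour, open points have fewer than 200000 counts, lines are group means and bars SDs (n = 6). Of the genes shown Slc11a1, Creb1 and Tank have no overlap between the groups, and in C3 and Col1a1 the open isotype points lie above the open anti-PD-1 points.

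The target of the antibody and its ligands all had higher means under anti-PD-1. Pdcd1, which encodes PD-1, had log2 values of 6.18, 6.04, 5.61, 5.94, 6.26 and 6.29 in anti-PD-1 tumours 7, 11, 13, 37, 43 and 74, against 5.03, 6.15, 5.53, 4.40, 4.71 and 5.27 in isotype tumours 6, 23, 47, 55, 59 and 64. The treated tumours lay close together, and only isotype tumour 23, in which the value rests on 13 counts, reached their range. The log2 fold change was 0.87 (0.27 to 1.47, adjusted p = 0.301). Cd274, which encodes PD-L1, had a lowest, median and highest log2 value of 8.27, 8.80 and 9.15 under anti-PD-1 and 7.17, 7.97 and 8.71 under isotype. Its log2 fold change was 0.76 (0.22 to 1.31), and isotype tumours 23 and 47 lay within the treated range. Pdcd1lg2, which encodes PD-L2, had 4.97, 5.81 and 6.11 under anti-PD-1 and 3.93, 4.89 and 6.45 under isotype, a log2 fold change of 0.73 (-0.08 to 1.53). The antibody blocks the protein, so these transcript levels do not measure how much PD-1 was blocked.

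MHC class II genes, whose products show peptides to CD4 T cells, had the highest median of the 37 lists. All 10 tested members had a log2 fold change above 0, where 73.0% of the panel did, with a median of 0.97 (range 0.08 to 1.49) against 0.23 for all 600 genes. In 8 of the 10 members all 6 treated tumours were above the isotype mean, as in 21.3% of all genes, and 6 had an unadjusted p under 0.05, where 11.3% of all genes were higher at that level. Class II genes share a short promoter module with a Y box, the sequence TGATTGG read on either strand, which binds the factor NF-Y and helps recruit the class II transactivator CIITA. The promoters of the chains with the largest estimates are shown for that reason, as the 100 bases before the start of transcription (RefSeq, build GRCm38.p6, 5′ to 3′ on the strand of the gene), with the Y box letters in capitals.
H2-Eb1, chr17:34305767-34305866, plus strand: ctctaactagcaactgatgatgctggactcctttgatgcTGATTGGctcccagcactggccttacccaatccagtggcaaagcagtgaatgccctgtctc
H2-Aa, chr17:34287824-34287923, minus strand: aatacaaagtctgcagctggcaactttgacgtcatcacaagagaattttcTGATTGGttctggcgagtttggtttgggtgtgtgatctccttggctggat
The letters begin 61 bases before the start in H2-Eb1 and 50 bases before it in H2-Aa. Of the 10 tested class II members 6 had a promoter window, which reaches from 250 bases before the start into the first bases after it. Among these genes 4 held TGATTGG on either strand, against 7.82% of 32851 windows of all genes. The class II count is of genes and the share is of windows, of which a gene can have several, so the measures are not alike. These letters are a description of the sequence and not a measurement of binding.

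H2-Eb1, the beta chain of the class II molecule I-E, had log2 values of 11.48, 10.55, 9.52, 10.05, 11.89 and 11.29 in anti-PD-1 tumours 7, 11, 13, 37, 43 and 74, against 8.37, 11.54, 9.94, 9.02, 7.80 and 9.16 in isotype tumours 6, 23, 47, 55, 59 and 64. Treated tumours spread over more than 2 log2 units, and isotype tumour 23 was as high as the upper treated ones on 544 counts. The log2 fold change was 1.49 (0.38 to 2.60, 2.81-fold, adjusted p = 0.301). H2-Aa, the alpha chain of I-A, had a lowest, median and highest value of 10.69, 11.69 and 12.61 under anti-PD-1 and 9.47, 10.45 and 11.24 under isotype, a log2 fold change of 1.19 (0.29 to 2.09). H2-Ab1, the beta chain of I-A, had a log2 fold change of 1.08 (0.15 to 2.00), and the invariant chain gene Cd74 one of 0.93 (-0.03 to 1.89). Anti-PD-1 tumours 7, 43 and 74 were the 3 highest treated tumours in each of these 4 genes, and tumour 13 the lowest.

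Ciita, which encodes the transactivator CIITA, showed the same layout at low counts. It had 17 to 112 counts in anti-PD-1 tumours and 4 to 79 in isotype tumours, and log2 values of 5.44, 5.94 and 6.53 (lowest, median and highest) under anti-PD-1 and 3.85, 4.34 and 6.36 under isotype. This was a log2 fold change of 1.17 (0.32 to 2.01). H2-DMa, a subunit of the peptide loader of class II, had 7.77, 8.31 and 9.08 under anti-PD-1 and 7.24, 7.35 and 8.11 under isotype, a log2 fold change of 0.89 (0.30 to 1.48). Only isotype tumour 47 reached the treated range of H2-DMa. In tumour extracts a smaller number of antigen-presenting cells and less RNA per cell cannot be told apart, and this holds for every list of cell type genes.

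MHC class I genes, which display peptides to CD8 T cells, had smaller estimates spread over more members. All 15 tested members had a log2 fold change above 0 (median 0.43, range 0.03 to 0.81), where 73.0% of all genes did. In 11 of them 6 of 6 treated tumours were above the isotype mean, as in 21.3% of all genes. The non-classical gene H2-T23, whose product Qa-1 is a ligand of the receptor NKG2A, had the largest value. Its lowest, median and highest log2 values were 9.69, 10.17 and 10.75 under anti-PD-1 and 8.64, 9.39 and 10.06 under isotype, a log2 fold change of 0.81 (0.24 to 1.38). Tapbp, which holds class I molecules at the peptide transporter, had 9.21, 9.54 and 9.78 against 8.50, 9.02 and 9.45 (0.54, 0.16 to 0.91). Psmb9, a subunit of the immunoproteasome, had a log2 fold change of 0.66 (0.14 to 1.18) and the transporter gene Tap2 one of 0.43 (0.04 to 0.81). Psmb9 and Tap2 were chosen after their values were seen. The classical gene H2-K1 had 10.98, 11.34 and 11.75 under anti-PD-1 and 10.65, 10.88 and 11.11 under isotype (0.45, 0.07 to 0.82).

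**Figure D3:**
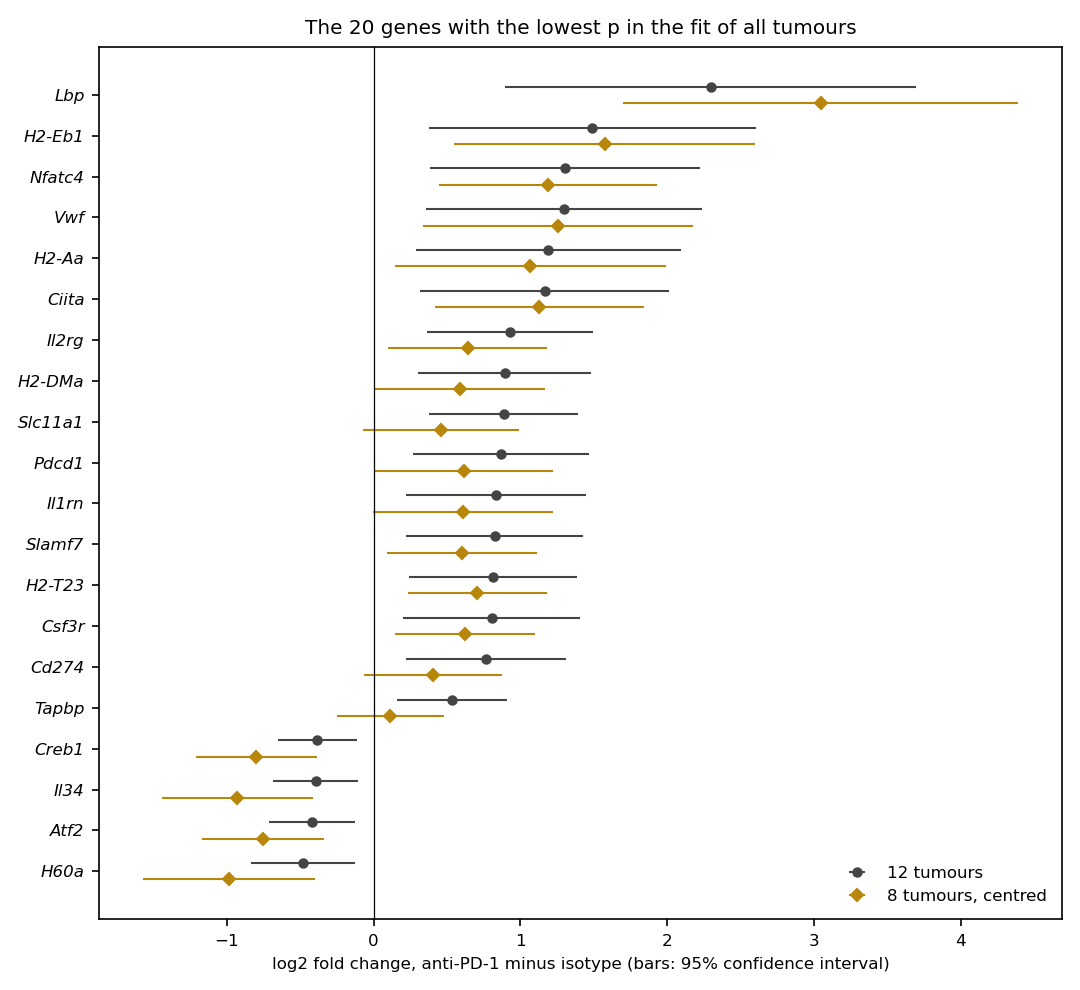
Log2 fold change, anti-PD-1 minus isotype, with 95% confidence intervals from limma for the 20 genes with the lowest p. Circles use all 12 tumours as deposited and diamonds the 8 deeper tumours after centring each on its median. The estimate of H2-Eb1 is 1.49 and 1.58 by these readings, that of Tapbp 0.54 and 0.11, and that of Creb1 -0.38 and -0.80.

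After each tumour was centred on the median of its tested genes, the class I list lay closer to 0 than the class II list. The class I median became 0.18 with 13 of 15 members above 0, and the class II median became 0.73 with 8 of 10 members above 0. The median of all genes was then -0.02, with 48.5% of genes above 0. Centring called 1 of 600 genes (0.167%), Tank, which is described with the lower genes, and left 9 genes (1.5%) without overlap, all of them lower.

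T cell genes had positive estimates, in part with wide intervals. All 14 tested members of the T cell receptor list had a log2 fold change above 0, where 73.0% of all genes did. Their median was 0.41, and 0.16 after centring. Cd3d, a signalling chain of the T cell receptor complex, had a lowest, median and highest log2 value of 6.31, 6.81 and 7.04 under anti-PD-1 and 4.88, 6.15 and 7.31 under isotype (0.72, 0.06 to 1.37). Cd8a, the coreceptor of cytotoxic T cells, had 5.56, 5.91 and 6.32 against 3.96, 5.27 and 6.62 (0.59, -0.10 to 1.28). Cd4, the coreceptor of helper T cells, had 5.32, 5.83 and 6.12 against 4.08, 4.86 and 6.70 (0.76, -0.08 to 1.60). In all 3 genes isotype tumour 23 was the highest of the 12 tumours, on 29, 18 and 19 counts. Without this tumour the median of the list was 0.75, or 0.46 after centring, against 0.34 and 0.05 for all 600 genes. As deposited, leaving out the highest isotype value of a gene can only raise its estimate.

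Cytotoxic effector genes had estimates close to 0. Gzmb, which encodes granzyme B, had log2 values of 6.60, 7.15 and 7.85 (lowest, median and highest) under anti-PD-1 and 6.86, 7.20 and 7.73 under isotype. Prf1, which encodes perforin, had 6.75, 7.64 and 7.97 against 7.45, 7.62 and 7.91. The groups overlapped throughout, and the intervals of the log2 fold changes, -0.73 to 0.71 for Gzmb and -0.94 to 0.73 for Prf1, hold differences of either sign. Of the 7 tested members 4 had a value above 0 (median 0.16, -0.09 after centring), and 0 had an unadjusted p under 0.05. Ifng had 12 to 39 counts in anti-PD-1 tumours and 9 to 37 in isotype tumours, and a log2 fold change of 0.25 (-0.55 to 1.05).

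Foxp3, which defines the regulatory T cell lineage, was among the more evenly placed genes of the treated group. Its log2 values were 5.15, 4.86, 4.71, 4.94, 4.80 and 4.80 in anti-PD-1 tumours 7, 11, 13, 37, 43 and 74, against 4.03, 4.77, 3.63, 3.48, 4.15 and 3.49 in isotype tumours 6, 23, 47, 55, 59 and 64. These rest on 12 to 49 counts under anti-PD-1 and 4 to 21 under isotype, and isotype tumour 23, the one inside the treated range, had 5. Its log2 fold change was 0.95 (0.12 to 1.79, adjusted p = 0.315). Ctla4, an inhibitory receptor of activated and regulatory T cells, had 4.71, 5.35 and 5.66 against 4.28, 5.05 and 6.45 (0.22, -0.48 to 0.91). The exhaustion marker Lag3 had a value of 0.33 (-0.32 to 0.99). Both Ctla4 and Lag3 peaked in isotype tumour 23, and the Ctla4 estimate was -0.03 after centring.

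Genes induced by interferon-gamma had higher means under anti-PD-1 in all 18 tested members, where 73.0% of all genes did. Their median log2 fold change was 0.44 (0.19 after centring, with 17 above 0). In 12 of the 18 all treated tumours were above the isotype mean, as in 21.3% of all genes. The list shares members with lists given above and below, so it is not a separate reading. Ciita is also in the class II list, Cd274 in that of PD-1 and its ligands, and Psmb8, Psmb9, Psmb10 and Tap1 in class I. Cxcl9, Cxcl10 and Cxcl11 are also T cell chemokines. Genes of the type I interferon response had a median of 0.39, with 23 of 24 above 0, against 73.0% of all genes. Irf7, its amplifying transcription factor, had 8.48, 9.54 and 9.86 against 7.85, 8.53 and 9.46 (0.78, 0.15 to 1.41), and the tetherin gene Bst2 had a log2 fold change of 0.54 (0.09 to 0.99). After centring the type I median was 0.14.

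Chemokines and receptors that bring T cells into tissue were above 0 in 17 of 17 tested members (median 0.60, and 0.35 after centring), against 73.0% of all genes. Cxcl9, which attracts CXCR3-bearing T cells, had 9.89, 10.17 and 10.95 under anti-PD-1 and 8.78, 9.45 and 10.43 under isotype (0.82, -0.09 to 1.72). Its receptor Cxcr3 had a log2 fold change of 0.62 (-0.07 to 1.31). Ccr7, the lymph node homing receptor, had one of 0.81 (0.12 to 1.51), and Ccl5, a T cell chemokine chosen after its values were seen, one of 0.91 (0.12 to 1.70). Among other cell types, the mast cell protease genes Cma1 (0.97, 0.23 to 1.71) and Tpsab1 (0.89, 0.18 to 1.59) and the granulocyte receptor gene Csf3r (0.81, 0.20 to 1.41) had intervals above 0. Each was above the isotype mean in 6 of 6 treated tumours, as were 21.3% of all genes. The neutrophil list, to which Csf3r belongs, also holds Lilra5 at -0.69. After centring 3 of 6 members of that list were above 0, and 4 of 6 in the list of mast cells and eosinophils.

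Ptprc, which encodes the pan-leukocyte protein CD45, had a lowest, median and highest log2 value of 8.44, 9.02 and 9.70 under anti-PD-1 and 8.12, 8.74 and 9.13 under isotype, a log2 fold change of 0.31 (-0.27 to 0.89). This is close to the median of the panel. The pan-leukocyte list had 8 of 9 members above 0 (median 0.31), natural killer cells 5 of 9 (0.21), B cells 9 of 10 (0.26), macrophages and monocytes 13 of 17 (0.28), neutrophils 5 of 6 (0.41), dendritic cells 8 of 9 (0.36) and mast cells and eosinophils 5 of 6 (0.45). After centring these medians lay between -0.04 and 0.20. Carcinoma cell genes were above 0 in 5 of 12 tested members (median -0.04), with list means per tumour of 7.45 to 7.93 under anti-PD-1 and 7.26 to 7.98 under isotype. Epcam, an epithelial surface marker, was below the filter, which is a mean over all 24 tumours. The part of cell composition in the results was not tested.

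**Figure D4:**
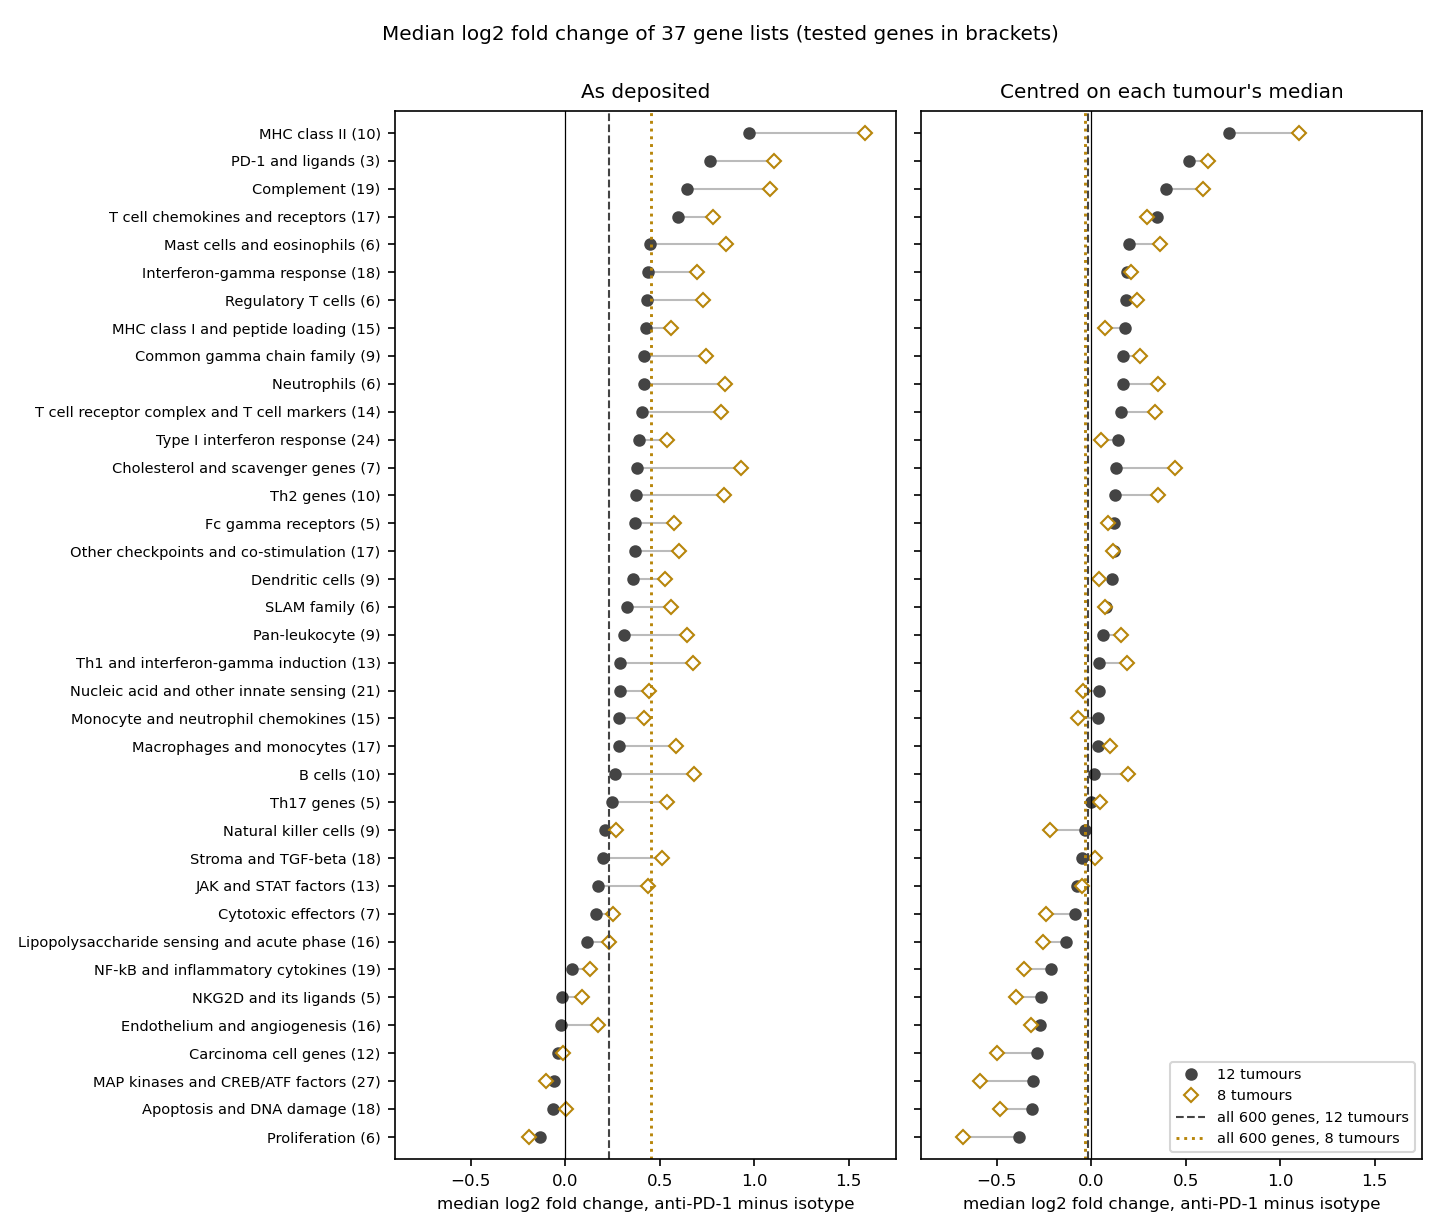
Median log2 fold change, anti-PD-1 minus isotype, of 37 gene lists, with the number of tested genes in brackets. Filled circles use all 12 tumours and open diamonds the 8 with at least 200000 counts, as deposited (left) and after centring each tumour on its median (right), and vertical lines are the medians of all 600 genes. MHC class II lies at 0.97, 1.59, 0.73 and 1.10 in the 4 readings, and the list of MAP kinases and CREB/ATF factors at -0.06, -0.10, -0.31 and -0.59.

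Complement genes had the third highest median of the lists and the largest single estimate, that of Cfd. Of 19 tested members 17 had a log2 fold change above 0, against 73.0% of all genes, and 8 were higher at an unadjusted p under 0.05, against 11.3%. Their median was 0.64, and 0.40 after centring with 16 of 19 above 0. C3, the central component on which all complement pathways converge, had log2 values of 11.93, 9.16, 10.89, 8.51, 11.24 and 10.73 in anti-PD-1 tumours 7, 11, 13, 37, 43 and 74, against 10.14, 10.72, 8.41, 8.34, 7.69 and 7.93 in isotype tumours 6, 23, 47, 55, 59 and 64. The spread within each group was as wide as the difference, and followed the depth of the tumours in opposite directions. The 2 low-count treated tumours were the lowest of their group, and the 2 low-count isotype tumours the highest of theirs. The log2 fold change was 1.54 (0.23 to 2.85, adjusted p = 0.303) over 12 tumours and 3.11 over the 8 deeper ones, where C3 was the 1 gene called of 600 (0.167%; adjusted p = 0.0276 by limma). Within the 4 low-count tumours the difference was -1.59.

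Lbp, which hands bacterial lipopolysaccharide to CD14 and is made in the acute phase, had log2 values of 9.34, 6.12, 8.49, 6.81, 6.48 and 7.31 in anti-PD-1 tumours 7, 11, 13, 37, 43 and 74, against 7.03, 6.26, 4.51, 3.55, 4.22 and 5.22 in isotype tumours 6, 23, 47, 55, 59 and 64. Isotype tumours 6 and 23 were the highest of their group, on 32 and 14 counts. The log2 fold change was 2.30 (0.90 to 3.70, 4.91-fold, adjusted p = 0.301), 3.53 over the 8 deeper tumours and -0.18 within the 4 low-count ones. Cfd, the factor D protease of the alternative pathway and a product of fat cells, had 8.61, 5.04, 6.83, 9.0, 5.11 and 5.47 against 4.35, 6.03, 3.27, 3.24, 3.67 and 5.35, a log2 fold change of 2.36 (0.55 to 4.16). Its mean was drawn up by anti-PD-1 tumours 7 and 37, on 537 and 201 counts. The classical pathway components C2 (1.11, 0.25 to 1.96), C1ra (0.93, 0.16 to 1.71) and Serping1, the C1 inhibitor (1.26, 0.05 to 2.47), also had intervals above 0. C1ra and Serping1 were chosen after their values were seen.

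The stroma and TGF-beta list had 11 of 18 tested members above 0, with a median of 0.20 that was below the 0.23 of the panel and became -0.05 after centring. Its members ran from -0.45 for Spp1, which encodes osteopontin, to 1.37 for Col3a1. The collagens and Fap, at the upper end of this list, are described here. Col1a1, a chain of type I collagen, had log2 values of 12.61, 10.41, 13.07, 10.38, 11.73 and 12.58 in anti-PD-1 tumours 7, 11, 13, 37, 43 and 74, against 12.39, 11.26, 9.85, 9.24, 10.39 and 10.28 in isotype tumours 6, 23, 47, 55, 59 and 64. Its log2 fold change was 1.23 (-0.23 to 2.68) over 12 tumours, 2.55 over the 8 deeper and -1.43 within the 4 low-count ones. Col3a1, a chain of type III collagen, gave 1.37 (-0.11 to 2.85), 2.82 and -1.52 by the same 3 readings, and the stromal chemokine Cxcl12, chosen after its values were seen, 1.29 (-0.01 to 2.59), 2.56 and -1.24. The fibroblast activation protein gene Fap had a log2 fold change of 1.23 (0.22 to 2.23), and a difference of 0.00 within the low-count tumours. For complement C3, Lbp and the collagens the direction thus held in the deeper tumours and not in the shallower ones.

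The 4 low-count and the 8 deeper tumours gave opposite directions for 365 of 600 genes (60.8%), of which 324 were higher in the deeper and lower in the low-count tumours. Over the 4 low-count tumours, with 2 per group and no test, 197 of 600 genes (32.8%) were higher under anti-PD-1, with a median difference of -0.24, where the 8 deeper tumours gave 480 genes (80.0%) and a median of 0.46. The complement list had 4 of 19 members higher (median -0.34), the T cell list 4 of 14 (-0.36), T cell chemokines 6 of 17 (-0.28) and class II 5 of 10 (0.13). Class I had 10 of 15 higher (0.22), the interferon-gamma response 11 of 18 (0.10), type I interferon 14 of 24 (0.03) and PD-1 and its ligands 2 of 3 (0.40). Slc11a1 (0.76), Il2rg (0.53), H2-DMa (0.53), Cd274 (0.51), Tapbp (0.40), Pdcd1 (0.40), Foxp3 (0.50), H2-Eb1 (0.35) and Ciita (0.26) were higher within the low-count tumours as well. Cd8a (-0.07), Cd3e (-0.35) and Ptprc (-0.49) were not higher within the low-count tumours. Nor were the class II genes Cd74 (-0.47) and H2-Ab1 (-0.008), the PD-L2 gene Pdcd1lg2 (-0.06) and the chemokines Cxcl9 (-0.03) and Ccl5 (-0.28).

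**Figure D5:**
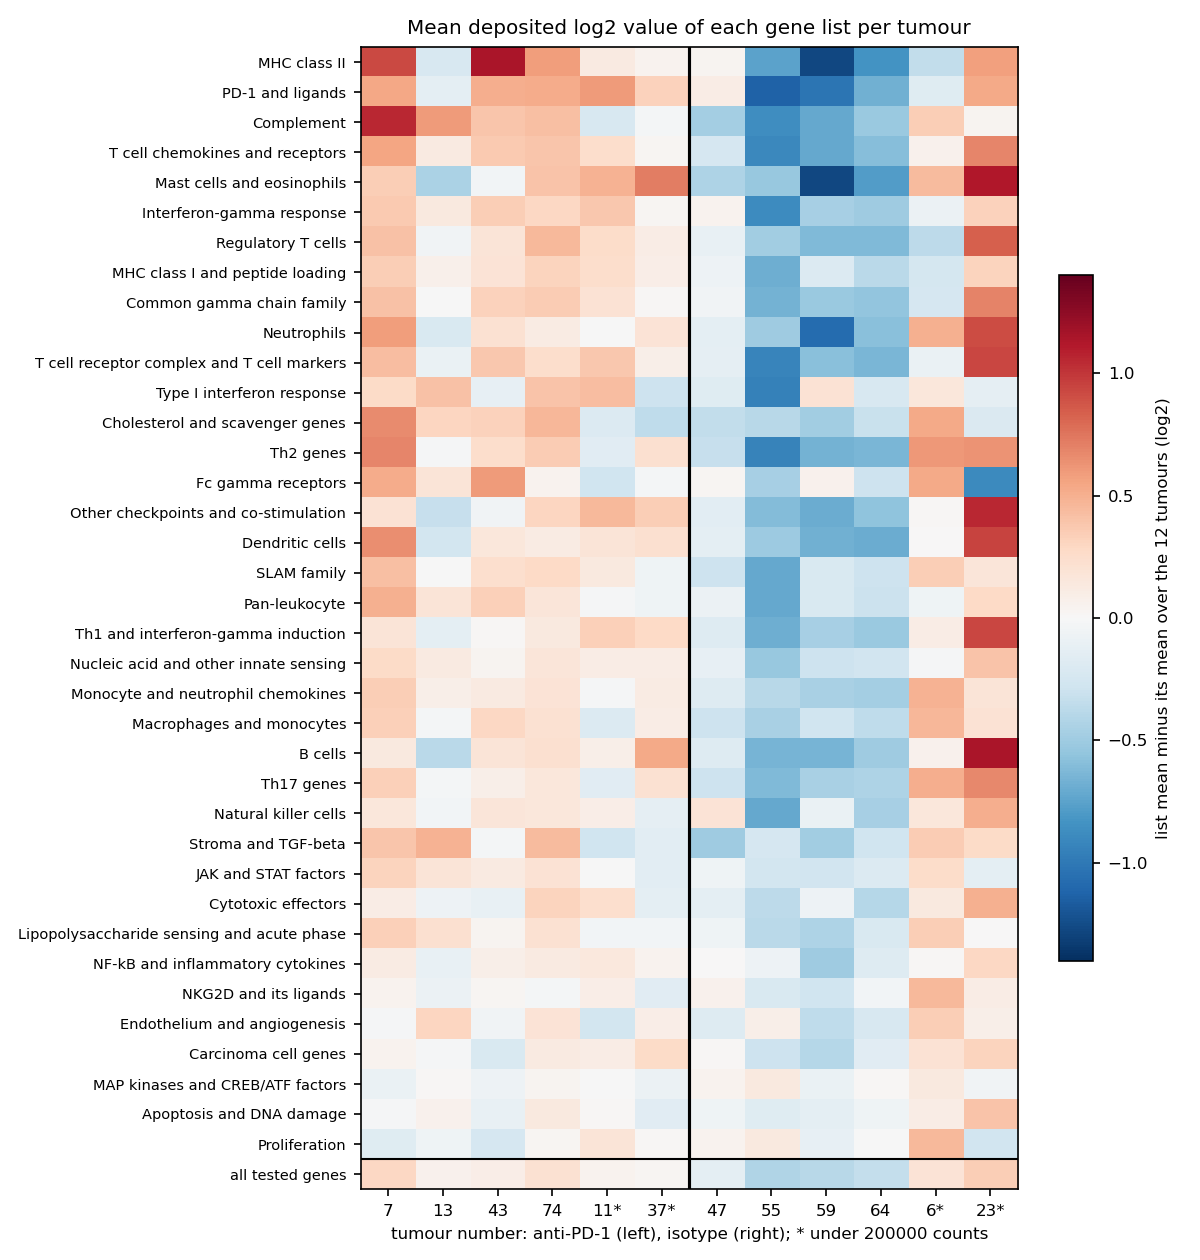
Mean deposited log2 value of each gene list in each tumour, minus the mean of that list over the 12 tumours, with red above and blue below it. Anti-PD-1 tumours are left of the line and isotype tumours right of it, and stars mark tumours under 200000 counts. In most immune lists isotype tumours 55, 59 and 64 are blue and isotype tumour 23 is red, and the bottom row shows the same order over all 600 genes.

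Isotype tumour 23 stood apart from its group in part of the lists. Its mean over all tested genes, 7.72, was the highest of the 12 tumours, and so was its mean in the lists of T cells, checkpoints, regulatory T cells, B cells, dendritic cells, natural killer cells and mast cells. It was also the highest in carcinoma cell genes and in apoptosis and DNA damage genes, which are not immune lists. Counted from the highest, it was number 4 of 12 for MHC class II and for the interferon-gamma response. For complement it was number 6, and for type I interferon number 8. In Fc gamma receptor and proliferation genes it was the lowest of the 12. Its values rest on 62699 counts in all. Its median over the tested genes, 7.36, was below the 7.52 of isotype tumour 6 and the 7.56 of anti-PD-1 tumour 74. With its factor, 3 counts correspond to a log2 value of 4.03, against 0.74 to 1.92 in the 8 deeper tumours. In the T cell list 9 of 14 genes had under 20 counts in isotype tumour 23. The part of low counts in its list means was not tested. Leaving it out moved the number of genes with an unadjusted p under 0.05 to 188 (31.3%) with 0 called, and after centring it moved the number called to 70 (11.7%), 17 higher (2.83%) and 53 lower (8.83%).

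As deposited, 162 of 600 genes had a log2 fold change below 0. The largest were those of Lilra5, a leukocyte receptor gene (-0.69, -1.28 to -0.11), the transcription factor Elk1 (-0.61, -1.31 to 0.09), the myeloid lectin Cd33 (-0.61, -1.25 to 0.02) and Lrrn3 (-0.60, -1.21 to 0.02). Isotype tumour 23 was the highest of the 12 tumours for Lilra5, Elk1 and Cd33, and the values without it were -0.47, -0.36 and -0.41. Creb1, Atf2 and Tank had smaller differences. Creb1, a transcription factor activated by cyclic AMP and calcium signals, had log2 values of 6.54, 6.76, 6.96, 6.75, 6.80 and 6.64 in anti-PD-1 tumours 7, 11, 13, 37, 43 and 74, against 6.99, 7.58, 7.06, 7.15, 6.99 and 7.00 in isotype tumours 6, 23, 47, 55, 59 and 64. The groups did not overlap, isotype tumour 23 lay well above the rest of its group, and the log2 fold change was -0.38 (-0.65 to -0.11, adjusted p = 0.301). Its relative Atf2, which pairs with JUN, had 7.62, 7.95 and 8.05 (lowest, median and highest) under anti-PD-1 and 8.0, 8.38 and 8.62 under isotype (-0.42, -0.71 to -0.12). Tank, an adaptor of TRAF and TBK1 signalling, had 6.91, 7.46 and 7.67 under anti-PD-1 and 7.71, 7.77 and 8.28 under isotype, also without overlap and with isotype tumour 6 well above the rest of its group (-0.43, -0.76 to -0.09). Tank fell by 0.67 after centring (adjusted p = 0.012), and the value without centring had an adjusted p = 0.301. Within the 4 low-count tumours the differences were -0.53 for Creb1, -0.73 for Atf2 and -0.89 for Tank. For Creb1 and Tank this sign was fixed, since their groups did not overlap over the 12 tumours. Of all 600 genes 32.8% were higher within the low-count tumours, with a median difference of -0.24.

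Other lower genes encode ligands and secreted factors. Il34, a ligand of the CSF1 receptor of macrophages, had 7.73, 7.88 and 8.22 under anti-PD-1 and 7.98, 8.42 and 8.59 under isotype (-0.39, -0.68 to -0.11). H60a and Ulbp1, ligands by which stressed cells engage NKG2D on natural killer and CD8 T cells, had log2 fold changes of -0.48 (-0.83 to -0.12) and -0.56 (-1.05 to -0.07), each with 6 of 6 treated tumours below the isotype mean. The receptor itself, encoded by Klrk1, had one of 0.65 (-0.05 to 1.34). Of the 27 tested MAP kinase and CREB/ATF genes 11 were above 0 (median -0.06), and 3 after centring (median -0.31). Proliferation genes had 2 of 6 above 0 (median -0.13), while Mki67 is not among the 750 genes.

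Centring combined with leaving out the 4 low-count tumours called 71 of 600 genes (11.8%), 19 higher (3.17%) and 52 lower (8.67%). C3 rose by 2.62 in this reading (1.65 to 3.59, adjusted p = 0.00818), Lbp by 3.05 (1.70 to 4.39, adjusted p = 0.0274), Col3a1 by 2.33 (1.06 to 3.60, adjusted p = 0.0274) and Col1a1 by 2.07 (0.75 to 3.39, adjusted p = 0.0419). H2-Eb1 rose by 1.58 (0.55 to 2.60, adjusted p = 0.0435), Ciita by 1.13 (0.42 to 1.84, adjusted p = 0.0405) and H2-T23 by 0.71 (0.24 to 1.18, adjusted p = 0.0475). Creb1 fell by 0.80, Atf2 by 0.75, Tank by 0.68, Il34 by 0.93 and Ulbp1 by 1.29 (adjusted p = 0.0274 for each). Centring sets the median of each tumour to the same value, so a fall here is a fall relative to the panel. Before centring the 8 tumours gave Creb1 a value of -0.31 and Tank one of -0.19, neither called. With centring the 8 tumours had 9 of 15 class I members above 0, against 288 of 600 genes. Of the class I members 1 was called higher, H2-T23, and 1 was called lower. Of the 71 genes 45 were also called after centring without isotype tumour 23 alone, 7 higher and 38 lower. Both readings were centred, left out isotype tumour 23 and held the same 8 deeper tumours, so their overlap is not a separate check. C3, Lbp, H2-Eb1, Ciita and H2-T23 were among the 7, and the collagens were not among the 45. Cd274 (0.40, -0.07 to 0.87) and Pdcd1 (0.62, 0.01 to 1.22) were not called with 8 tumours, with adjusted p of 0.227 and 0.147. Pdcd1 had a value of 0.78 (adjusted p = 0.044) after centring without isotype tumour 23. Of the centred readings with 1 tumour left out, which called 0 to 70 genes, that reading had the most calls.

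Without centring, the 8 deeper tumours had 211 genes with an unadjusted p under 0.05 (35.2%), 204 higher (34.0%) and 7 lower (1.17%), and 200 genes (33.3%) whose groups did not overlap, 190 higher (31.7%) and 10 lower (1.67%). In complement 16 of 19 tested members were among the higher ones, in interferon-gamma response 9 of 18, in T cell chemokines 9 of 17, in T cell genes 6 of 14 and in MHC class II 1 of 10. Class II thus had the highest median of the lists and a share without overlap below that of the panel. In each of its 9 other members anti-PD-1 tumour 13 was below isotype tumour 47.

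The antibody effect in tumours of NP1867-cultured cells was set against that in tumours of DMSO-cultured cells by a test of the difference. limma called 0 of 600 genes for NP1867 minus DMSO (0.0%), and 11 (1.83%) had an unadjusted p under 0.05. The difference in log2 fold change was 0.93 for H2-Eb1 (-0.64 to 2.50), 0.31 for Pdcd1 (-0.54 to 1.16), 0.79 for Gzmb (-0.23 to 1.81), -0.73 for Foxp3 (-1.91 to 0.45) and -0.38 for C3 (-2.23 to 1.46). These intervals hold differences of either sign.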

How the data were processed

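Per the labels, RNA from fixed CT26 tumours was counted with the NanoString nCounter Mouse PanCancer Immune panel. The authors deposited log2 values, 1 column per tumour, and the steps behind them are not given in the sources used here. Back-transformed values were whole counts (tolerance 0.05) times 1 factor per tumour, from 0.522 to 5.457, for 100.0% of values.

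Groups were read from sample titles, and the members, gene lists and comparison were chosen with earlier results of these data known. Of 750 genes the 600 that averaged log2 of 20 or more were tested with limma 3.58.1 in R 4.3.3, with 4 group means over 24 tumours and empirical Bayes with a trend. P-values were adjusted by Benjamini-Hochberg over the 600 genes, with a threshold of 0.05. They set each group difference against the spread between tumours within groups, estimated over all 24 tumours. Gene lists (37) are described by counts and medians. Symbols were matched to the RefSeq table of GRCm38.p6, 736 directly and 8 through older symbols, and 6 were not matched. Promoters came from the same release.

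Named genes were the 20 with the lowest p, the 5 largest changes each way, those without overlap, the 2 with the lowest p in each list and a list of fixed genes. Alternatives were centring, quantile normalisation, other filters, fewer tumours, array weights, covariates, an added constant of 10 and voom on recovered counts. The fit was tested on simulated data. The rule names more genes than the text describes, and the values of the others are not reported here.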

Additional observations from a re-analysis of the deposited data

Results flagged for a closer look

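In groups of 6 tumours, the highest or lowest value was set apart when its gap to the next exceeded 0.625 of the range of its group. Chance sets apart about 1 in 20 groups, and 18 values of 276 groups examined were.

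Isotype tumour 23 was high for Creb1 (log2 value 7.58, next 7.15), Icosl (5.77, next 5.19) and Tap2 (9.57, next 8.80) and low for Ulbp1 (6.70, next 7.81), and its regulatory T cell list mean was high (6.13, next 5.19). Isotype tumour 6 was high for Ccnd3 (8.84, next 7.93), Stat3 (9.19, next 8.52), Tank (8.28, next 7.77) and the list of cholesterol and scavenger genes (10.03, next 9.30). Isotype tumour 55 was low for Xaf1 (7.39, next 8.25) and for the type I interferon list (7.68, next 8.41), and isotype tumour 59 was low for Lrrn3 (5.38, next 5.98).

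Anti-PD-1 tumour 13 was high for Hmgb1 (9.87, next 9.41) and low for Tap2 (8.91, next 9.21), Pdcd1lg2 (4.97, next 5.80) and the list of PD-1 and its ligands (6.31, next 6.77). Anti-PD-1 tumour 7 was high for Egfr (7.57, next 6.78), and anti-PD-1 tumour 37 low for Klrk1 (6.75, next 7.33). Isotype tumours 6 and 23 had the fewest counts, and the part of depth in these values was not tested.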

How the results depend on the processing

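The number of genes called, 0 with all 12 tumours, was 1 with centring, 2 with quantile normalisation (Tank and Lilra5, lower), 273 with array weights (250 higher, 23 lower, with a weight of 0.1257 for isotype tumour 23), 1 without the 4 low-count tumours and 71 with centring and without them. It was 0 with no filter on low values, a filter at a mean of 50, the 12 tumours alone, robust empirical Bayes, either covariate, 10 added before the logarithm and voom, which left 118 genes at an unadjusted p under 0.05. Leaving out 1 tumour gave 0 each time, and 0 to 70 with centring as well. Without anti-PD-1 tumour 7 there were 46 genes at an unadjusted p under 0.05, and without isotype tumour 23 there were 188. The difference between NP1867 and DMSO had 0 calls in each alternative run.

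The median over all genes was -0.017 with centring, -0.0318 with quantile normalisation, 0.456 without the low-count tumours, -0.0324 with centring and without them, 0.165 to 0.336 with 1 tumour left out, and -0.067 to 0.049 with centring and 1 tumour left out. The reading of the 4 low-count tumours alone was chosen after seeing the data, and gave -0.24 for all genes, 0.13 for MHC class II, -0.36 for T cells and -0.34 for complement. The class II median was 1.59 without the low-count tumours. The class I median was 0.18 with centring, 0.071 with centring and without the low-count tumours, 0.326 to 0.547 with 1 tumour left out, and 0.047 to 0.260 with centring and 1 tumour left out. Of 37 lists 31 had a median above 0, 30 to 34 did with 1 tumour left out, and 20 to 25 with centring as well. Genes without overlap numbered 9 with centring, 7 with quantile normalisation and 200 without the low-count tumours.

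Of 101 genes named, 12 changed sign in at least 1 alternative, a count that leaves out the reading of the low-count tumours alone. That reading reversed the sign of further named genes, among them C3, Lbp, Cd74, Ccl5, Col1a1 and Col3a1. Others, among them Slc11a1, Cd274 and H2-Eb1, kept their sign in it. With centring Ctla4 was -0.032, Il17ra -0.024 and Pecam1 -0.15. With quantile normalisation Ctla4 was -0.19, Ctsw -0.049, Ifng -0.13 and Lag3 -0.11. With centring and without the low-count tumours Ccnd3 was -0.092, Il17ra -0.25, Myd88 -0.25, Pecam1 -0.21 and Tnfsf10 -0.11. Gzmb was 0.21 with array weights, 0.0069 with the log2 factor as a covariate, 0.10 without the low-count tumours and 0.029 with voom. Prf1 was 0.062 with array weights and 0.037 without the low-count tumours, and Pecam1 was -0.089 with Ptprc as a covariate. With 1 tumour left out, with or without centring, the values ran from -0.064 to 0.48 for Ccnd3, -0.16 to 0.48 for Ctla4, -0.071 to 0.55 for Ctsw, -0.38 to 0.12 for Gzmb, -0.18 to 0.56 for Ifng and -0.17 to 0.32 for Il17ra. They ran from -0.067 to 0.65 for Lag3, -0.10 to 0.34 for Myd88, -0.42 to 0.31 for Pecam1, -0.44 to 0.051 for Prf1, -0.040 to 0.43 for Ptprc and -0.11 to 0.66 for Tnfsf10. The cause of these moves was not tested. No paired analysis was possible because the anti-PD-1 and isotype groups share no tumour numbers.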
